A study of Mus musculus with 12 samples.

Results

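Genes of DNA replication and S phase, taken as a list of 45 gene symbols, were measured in leukemic bone marrow cells of adult mice. A row for 43 of them was present, and each of these had a mean of at least 1 FPKM over 12 libraries. They stand among 13169 symbols above that minimum, out of 25263 symbols with a row. *Cdt1* and *Gins2* had no row under these symbols and were not analysed here. FPKM counts fragments relative to transcript length and to library size, so levels can be compared between genes. Every group carried MLL-AF9 (MA9), an oncogene in which the histone methyltransferase MLL is joined to AF9 and which causes acute leukemia. The design had 4 groups of 3 libraries. WT-GFP and WT-Cre cells (strain C57BL/6) had a wild type Hoxa cluster and received a control GFP virus or a Cre recombinase virus. Hoxa-flox and Hoxa-del cells (strain C57BL/6J) had a Hoxa cluster flanked by loxP sites and received the control virus or Cre, which cuts out the sequence between loxP sites. All cells were kept overnight in SCF, GM-CSF, IL-6 and IL-3, infected by spinoculation and sorted for high GFP. Strain, Hoxa genotype and the leukemia itself changed together between the wild type and the floxed cells, so these cannot be told apart. Whether replicates were separate cultures or animals was not stated, so every p-value measures only the spread between these libraries.

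Replication begins in G1, when ORC, Cdc6 and Cdt1 load the MCM helicase onto origins. Kinases then activate the helicase with Cdc45 and GINS, primase and the polymerases copy both strands around the PCNA clamp, and ligase joins the Okazaki fragments of the lagging strand. E2F transcription factors switch on many of these genes at the G1 to S transition, and cyclin E with its kinase drives entry into S phase. Their RNA is widely read as a mark of proliferation, in leukemic marrow as elsewhere. In RNA from a whole population, fewer cells in S phase and less RNA of these genes per cell cannot be told apart.

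The deletion was visible as lower but not absent Hoxa RNA. *Hoxa9* measured 183, 159 and 159 FPKM in WT-GFP, 161, 171 and 152 in WT-Cre, 235, 217 and 257 in Hoxa-flox, and 83.5, 114 and 119 in Hoxa-del, so all Hoxa-del libraries lay below all others. All 12 markers of myeloid leukemic cells reached at least 1 FPKM in every library. Estimated depth relative to WT-GFP 1 ran from 0.313 (WT-Cre 2) to 1.47 (WT-GFP 3). The 6 floxed libraries did not group by virus. Clustering on 13028 symbols, with replication and mitosis genes left out, put Hoxa-flox 1, Hoxa-flox 2 and Hoxa-del 2 together (set A) and Hoxa-flox 3, Hoxa-del 1 and Hoxa-del 3 together (set B). Only listed replication and mitosis genes were left out, so other cell cycle genes could remain among the 13028 symbols. The sets were thus not shown to be independent of proliferation. Pearson correlations across the 13028 symbols were 0.976 to 0.987 within set A, 0.951 to 0.977 within set B and 0.913 to 0.929 between the sets. What separates the sets is not given in the labels. They come from measured values, so the genes are described across them with no test, and each floxed group mixes them in a ratio of 2 to 1.

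Promoter sequence of the RefSeq table (GRCm38.p6, 1 promoter a symbol, from 250 bases before to 50 after the start) was matched for 35 of the 43 genes. Letters of an E2F site (TTTGGCGC, TTTCGCGC, TTTCCCGC or TTTGCCGC, on both strands, overlapping matches allowed) stood in 10 of the 35, or 28.6%. The share was 4.35% of 8485 tested symbols with a promoter and 2.33% of all 27025 promoters. The letters CCAAT, the core of the NF-Y site, stood in 60% of the 35, against 39.6% of tested symbols and 38.0% of all promoters. The letters TTTGAA or TTCGAA, the CHR element of many late cell cycle genes, stood in 17.1% of the 35, against 14.0% of tested symbols and 19.5% of all promoters. These shares describe letters in a window and not factor binding. The 60 bases around a match are shown for the licensing genes *Cdc6*, *Mcm5* and *Mcm6* and for *Pola1*, whose level differed most between the library sets. Capitals mark the E2F letters, and each stretch is written 5′ to 3′ on the strand of its gene.
Cdc6: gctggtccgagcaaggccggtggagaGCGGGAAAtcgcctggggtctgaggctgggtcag
Mcm5: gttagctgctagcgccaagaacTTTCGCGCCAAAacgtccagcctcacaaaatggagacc
Mcm6: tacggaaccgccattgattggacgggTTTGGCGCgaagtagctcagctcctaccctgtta
Pola1: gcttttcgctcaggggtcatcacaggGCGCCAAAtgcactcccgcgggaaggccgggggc
They lie at chr11:98907987-98908046 (plus strand), chr8:75109334-75109393 (plus), chr1:128359719-128359778 (minus) and chrX:93632260-93632319 (minus). All are before the RefSeq start. GENCODE M21 places the *Cdc6* stretch in an intron of transcripts that start further upstream, and no gene over the others. The capitals of *Mcm5* hold overlapping matches on opposite strands. The split between the library sets was similar with and without the letters. The ratio of mean FPKM in set B to set A had a median of 2.09 (1.43 to 5.49) over the 10 genes with E2F letters and 2.03 (1.25 to 4.51) over the 25 without.

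By their median, the replication genes were near one level in all 6 wild type libraries, above it in set B and below it in set A. Gene by gene, set B lay above all 6 wild type libraries in 81.4% of the 43, beside 22.3% of all symbols. Set A lay below all 6 in 34.9%, near the 28.4% of all symbols. The median level of the 43 genes was 20.0, 18.1 and 19.3 FPKM in WT-GFP, and 17.3, 16.0 and 17.2 in WT-Cre. It was 13.2, 13.9 and 26.2 in Hoxa-flox and 21.3, 15.8 and 26.3 in Hoxa-del. The highest 3 values are those of set B and the lowest 3 those of set A, while the median over all tested symbols stayed between 9.98 and 10.5 FPKM. *Mki67*, a marker of cycling cells outside the list, measured 78.2, 73.7 and 72.7 FPKM in WT-GFP and 67.4, 65.1 and 68.4 in WT-Cre. In the floxed libraries it was 16.4, 14.9 and 17.8 in set A and 88.5, 84.6 and 93.2 in set B. The split was thus wider for *Mki67* than for the median level of the 43 genes, though not than for every single gene.

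**Figure D1:**
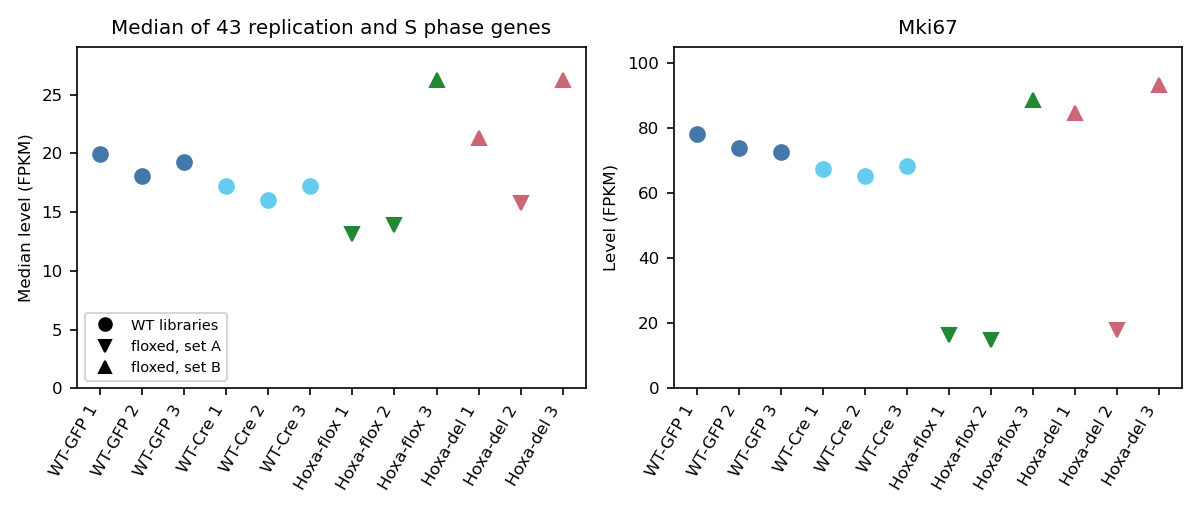
Median FPKM of the 43 replication and S phase genes (left) and FPKM of Mki67 (right) in each of the 12 libraries; circles are wild type, triangles pointing down and up are floxed libraries of set A and set B. The wild type medians run from 16.0 to 20.0, set A from 13.2 to 15.8 and set B from 21.3 to 26.3.

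Of the 43 genes, 40 had all set B libraries above all set A libraries, where 23.1% of all tested symbols did. None had all set B libraries below, where 31.7% of all symbols did. The median ratio of set B to set A was 2.09, against 0.93 over all symbols. It was at least 2 for 25 genes and under 1.5 for 6. Against the wild type, 35 genes had set B above all 6 WT libraries (22.3% of all symbols) and 15 had set A below all 6 (28.4%). For 12 genes the wild type lay wholly between the sets (3.09%). Rescaling to equal upper quartiles of the tested symbols, an alternative chosen after seeing the data, gave 41 genes with set B above set A, beside 27.0% of all symbols.

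Sums of myeloid leukemic markers, of macrophage markers and of stroma and endothelium markers also separated the sets, while those of late neutrophil markers overlapped. The 12 myeloid leukemic markers summed to 4773 to 5458 FPKM in set A and 3473 to 4557 in set B. In the wild type they summed to 4593 to 6694. Single markers of this list went both ways. *Csf1r* measured 28.6, 28.6 and 30.5 FPKM in set A and 4.53, 8.68 and 7.89 in set B. *Mpo* measured 4.42, 3.80 and 12.5 FPKM in set A and 31.1, 407 and 98.2 in set B. Of 8 late neutrophil markers, 6 reached 1 FPKM in every library, and their sum was 1010 to 1210 FPKM in set A, 100.1 to 1071 in set B and 3554 to 3852 over the wild type libraries. The 8 macrophage markers summed to 96.0 to 100.1 FPKM in set A, 29.5 to 43.2 in set B and 174 to 212 in the wild type. Only *Adgre1* of these reached 1 FPKM in every library, and *C1qc* was at 0 to 0.239 FPKM in the floxed cells. *Adgre1* made up most of the macrophage sum in the floxed cells. It measured 97.1, 99.4 and 95.3 FPKM in set A and 42.9, 29.2 and 34.3 in set B. In the wild type it measured 41.1 to 48.2, below set A, unlike the sum. The 8 markers of stroma and endothelium summed to 47.7 to 55.3 FPKM in set A, 19.8 to 32.9 in set B and 12.2 to 14.5 in the wild type, mostly *Pecam1*, while the endothelial *Cdh5* stayed at 0 to 0.122 FPKM. Erythroid, T cell and B cell markers summed to at most 7.81, 9.23 and 3.97 FPKM in any library. No marker with a row was at 0 in every library. These sums describe marker RNA and do not show that such cells were present. How the marker differences relate to the replication gene levels was not tested.

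**Figure D2:**
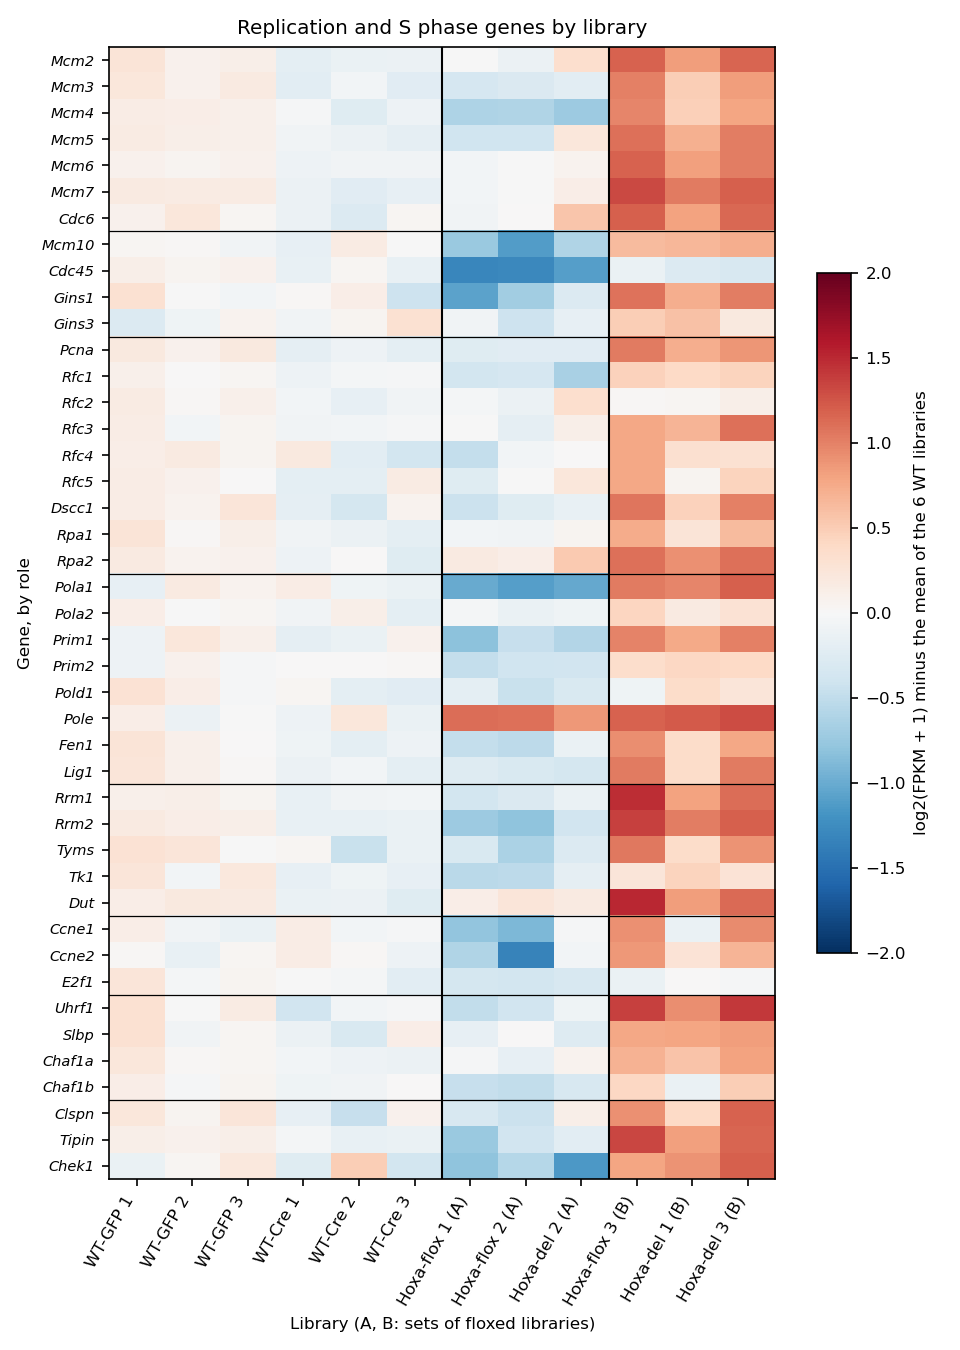
Level of each of the 43 genes (rows, by role) in each library (columns), as log2(FPKM + 1) minus the mean of the 6 wild type libraries; red is higher and blue lower. The set B columns are red for most genes, Pole is red in all 6 floxed columns, and Cdc45 is blue in all 6.

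Origin licensing and the MCM helicase gave the most even group. The ratio of set B to set A lay between 1.96 (*Cdc6*) and 2.76 (*Mcm4*) for all 7 genes, with a median of 2.14. *Mcm3*, a subunit of the MCM ring and the gene of this role with the highest mean, measured 57.7, 51.8 and 55.7 FPKM in WT-GFP, 42.2, 46.9 and 41.6 in WT-Cre, 38.4, 39.8 and 99.6 in Hoxa-flox, and 69.5, 42.1 and 87.9 in Hoxa-del. *Mcm6*, another subunit of the ring, measured 46.5, 45.3 and 46.2 FPKM in WT-GFP, 40.6, 41.5 and 41.3 in WT-Cre, 41.9, 43.2 and 99.8 in Hoxa-flox, and 77.3, 45.9 and 89.5 in Hoxa-del. For both, each set B library lay above every other library, and the set A libraries of *Mcm6* lay among the wild type values. *Mcm2*, whose N-terminal tail also binds histones, measured 29.8, 26.2 and 26.8 FPKM in WT-GFP, 21.3, 22.3 and 22.7 in WT-Cre, 24.6, 22.7 and 57.2 in Hoxa-flox, and 44.8, 31.2 and 56.2 in Hoxa-del. *Cdc6*, the loader of the ring, was far lower, at 5.77, 6.48 and 5.58 FPKM in WT-GFP, 4.92, 4.32 and 5.55 in WT-Cre, 5.08, 5.44 and 13.6 in Hoxa-flox, and 10.2, 8.36 and 13.2 in Hoxa-del. In both of these genes Hoxa-del 2 lay above the other set A libraries, and above every wild type library too. *Mcm4*, *Mcm5* and *Mcm7*, the other ring subunits, had set B to set A ratios of 2.76, 2.21 and 2.29. Only *Mcm4* had all of set A below all of the wild type, at 15.2 to 16.6 FPKM against 21.5 to 28.5.

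The genes that turn the loaded helicase into a moving one differed more among themselves. *Cdc45*, which completes the active helicase with GINS, measured 24.8, 23.5 and 24.3 FPKM in WT-GFP, 20.3, 23.4 and 20.3 in WT-Cre, 8.56, 8.73 and 20.6 in Hoxa-flox, and 18.6, 10.1 and 18 in Hoxa-del. All 6 floxed libraries lay below all 6 wild type libraries except Hoxa-flox 3, which passed the lowest 2 of WT-Cre. So *Cdc45* split between the sets like the others (ratio 2.09), but around a lower level. *Mcm10*, which supports helicase activation, had a ratio of 3.10. *Gins1* and *Gins3*, subunits of the GINS complex, had ratios of 3.69 and 1.79. *Gins3* was among the lowest genes of the list, with 1.99 to 4.99 FPKM over the 12 libraries.

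The clamp, its loader and the single-strand binding proteins held the gene that differed least between the sets. *Rfc2*, a small subunit of the clamp loader and the gene with the highest mean of all 43, measured 63.1, 57.5 and 60.3 FPKM in WT-GFP, 54.2, 50 and 53.7 in WT-Cre, 54.5, 52.0 and 57.4 in Hoxa-flox, and 57.9, 71.2 and 61.5 in Hoxa-del. Its highest library was Hoxa-del 2, of set A, and its ratio of set B to set A was 0.995. *Rpa2*, a subunit of the complex that coats single-stranded DNA, measured 12.3, 11.5 and 11.6 FPKM in WT-GFP, 10.0, 10.9 and 9.04 in WT-Cre, 12.5, 12 and 24.5 in Hoxa-flox, and 21.3, 16.1 and 24.5 in Hoxa-del. Every Hoxa-del library lay above every WT-Cre library, and set B was the highest. *Pcna*, the clamp itself, had 32.0 to 32.4 FPKM in set A, 33.0 to 43.4 in the wild type and 63.6 to 78.5 in set B. The other loader subunits *Rfc1*, *Rfc3*, *Rfc4* and *Rfc5* had ratios of 1.91, 1.93, 1.63 and 1.39, and *Rfc5* overlapped between the sets. *Rpa1* had a ratio of 1.52, and *Dscc1*, of an alternative clamp loader, had 3.20 at the lowest mean of the list (2.14 FPKM).

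Among polymerases, primase and the genes of Okazaki fragment maturation, ratios ran from 1.16 to 5.49. *Lig1*, the ligase that seals Okazaki fragments, measured 33.0, 29.5 and 28.2 FPKM in WT-GFP, 25.4, 26.4 and 23.9 in WT-Cre, 23.0, 22.3 and 57.6 in Hoxa-flox, and 35.7, 21.5 and 57.7 in Hoxa-del. *Pole*, the catalytic subunit of the leading strand polymerase epsilon, measured 8.92, 7.30 and 7.96 FPKM in WT-GFP, 7.38, 9.53 and 7.23 in WT-Cre, 18.5, 18.4 and 19.5 in Hoxa-flox, and 20.1, 15.5 and 21.2 in Hoxa-del. The lowest floxed value of *Pole* exceeded the highest wild type value, in both sets, and the set ratio was only 1.16. The catalytic subunit of polymerase alpha, *Pola1*, had the largest ratio of all, with 2.75 to 3.03 FPKM in set A, 6.20 to 8.13 in the wild type and 15.0 to 17.4 in set B. Its partner *Pola2* had a ratio of 1.34, and the primase genes *Prim1* and *Prim2* had 3.23 and 1.82, so subunits of a single complex differed in their split. *Pold1*, of the lagging strand polymerase delta, had a ratio of 1.43, and *Fen1*, which trims Okazaki fragments, had 2.16.

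**Figure D3:**
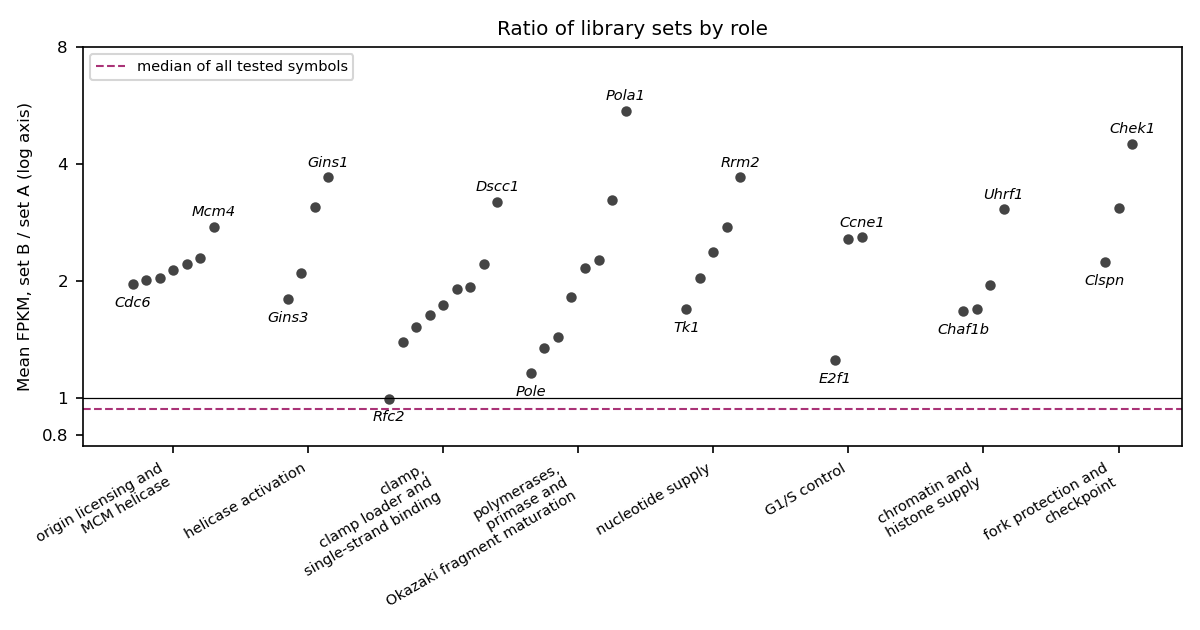
Mean FPKM of set B divided by that of set A for each of the 43 genes (points, log axis), by role; the highest and lowest gene of each role are named and the dashed line is the median of all tested symbols. Pola1 is highest at 5.49 and Rfc2 lowest at 0.995.

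Nucleotide supply followed the sets in all 5 genes, with a median ratio of 2.38. *Rrm1*, the large subunit of ribonucleotide reductase, measured 29.2, 29.4 and 28.1 FPKM in WT-GFP, 24.4, 25.7 and 26.1 in WT-Cre, 20.7, 22.0 and 77.1 in Hoxa-flox, and 48.2, 24.6 and 59.6 in Hoxa-del. *Tk1*, the thymidine salvage kinase, measured 27.7, 22.5 and 27.3 FPKM in WT-GFP, 20.8, 22.0 and 20.8 in WT-Cre, 15.7, 15.9 and 27.9 in Hoxa-flox, and 32.2, 20.5 and 28.3 in Hoxa-del. *Rrm1* in set B was far above the wild type, whereas *Tk1* in set B was little above the WT-GFP values. *Rrm2*, the S phase subunit of the reductase, had 15.4 to 20.9 FPKM in set A, 24.7 to 31.4 in the wild type and 57.4 to 73.0 in set B. *Tyms*, which makes thymidylate, had a ratio of 2.38. *Dut*, which removes dUTP, had a ratio of 2.03, with 25.8 to 28.0 FPKM in set A against 19.7 to 27.0 in the wild type.

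The G1/S regulators gave 3 different patterns. *E2f1*, the activating transcription factor, measured 16.8, 13.6 and 14.6 FPKM in WT-GFP, 14.0, 13.7 and 12 in WT-Cre, 10.8, 10.7 and 12.7 in Hoxa-flox, and 14.1, 11.1 and 13.9 in Hoxa-del. All set A libraries lay below all wild type libraries, but set B lay within the wild type range (ratio 1.25). *Ccne1*, which encodes cyclin E1, had a ratio of 2.59, but Hoxa-del 1 (4.99 FPKM) of set B lay below Hoxa-del 2 (5.5) of set A. *Ccne2*, of cyclin E2, had a ratio of 2.56 with no overlap.

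The genes of chromatin and histone supply had ratios from 1.67 to 3.05. *Uhrf1*, which brings the maintenance DNA methyltransferase to new DNA, measured 34.2, 27.1 and 30.9 FPKM in WT-GFP, 20.7, 26.3 and 27.0 in WT-Cre, 19.2, 20.7 and 72.6 in Hoxa-flox, and 53.2, 25.8 and 74.6 in Hoxa-del. *Chaf1b*, a subunit of the histone chaperone CAF-1, measured 20.2, 18.1 and 19.3 FPKM in WT-GFP, 17.3, 17.5 and 18.5 in WT-Cre, 13.2, 12.9 and 24.9 in Hoxa-flox, and 16.8, 14.5 and 26.3 in Hoxa-del. *Uhrf1* in set B exceeded every wild type library, while Hoxa-del 1 in *Chaf1b* lay below all of them. *Chaf1a*, the large CAF-1 subunit, had a ratio of 1.69, and *Slbp*, which binds the stem-loop of replication-dependent histone mRNA, had 1.95.

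Fork protection and checkpoint genes had the highest median ratio of any role, 3.09 over 3 genes. *Tipin*, which keeps the fork stable with Timeless, measured 20.0, 19.7 and 20.1 FPKM in WT-GFP, 17.8, 16.6 and 16.8 in WT-Cre, 10.6, 13.9 and 48.1 in Hoxa-flox, and 33.3, 15.8 and 42.8 in Hoxa-del. *Chek1*, the kinase of the replication checkpoint, measured 4.37, 5.08 and 5.81 FPKM in WT-GFP, 3.97, 7.32 and 3.55 in WT-Cre, 2.37, 2.97 and 9.17 in Hoxa-flox, and 9.97, 1.65 and 12.4 in Hoxa-del. For *Chek1*, WT-Cre 2 stood above the other wild type libraries, and this was the library of lowest estimated depth. *Clspn*, which links ATR to *Chek1*, had a ratio of 2.23. Over all 8 roles, the highest library was one of set B in 40 of 43 genes (23 in Hoxa-flox 3, 13 in Hoxa-del 3 and 4 in Hoxa-del 1), and the lowest was one of set A in 31.

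**Figure D4:**
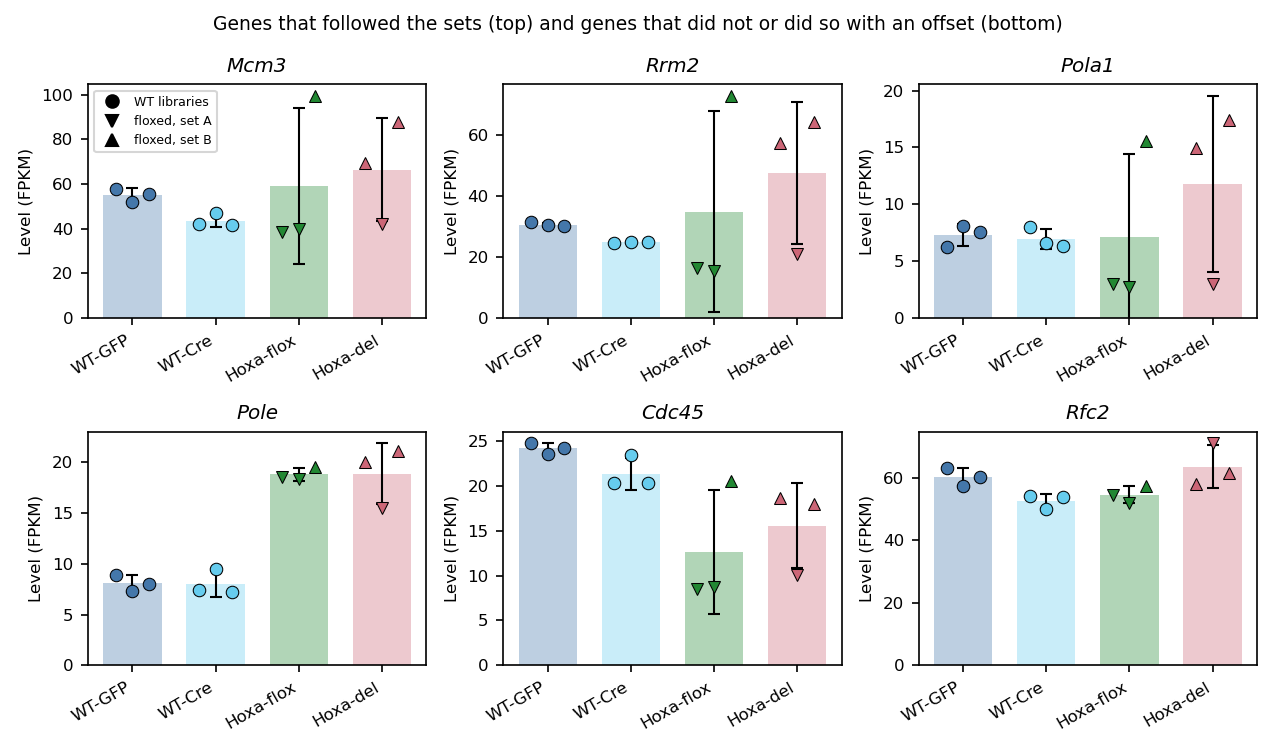
FPKM of 6 genes in each group: points are libraries (triangles down for set A, up for set B), bars the mean of 3 libraries and error bars the SD, cut at 0. Mcm3, Rrm2 and Pola1 split by set, Pole is higher in all floxed libraries, Cdc45 splits around a lower level, and Rfc2 has its highest value in Hoxa-del 2.

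Deletion of the Hoxa cluster was tested as Hoxa-del against Hoxa-flox. None of the 43 genes passed (limma on log2(FPKM + 1), lowest adjusted p = 0.729), beside 0.0304% of all symbols, and 0 had an unadjusted p under 0.05. The direction was one-sided even so: 42 genes had a positive change and 1 a negative one, *Pole*. Changes ran from -0.00 to 0.74 with a median of 0.32, against -0.06 over all symbols. *Pcna*, for example, had a mean of 47.5 ± 26.8 FPKM without Cre and 55.6 ± 20.4 with it (SD, n = 3). Hoxa-flox held 2 libraries of set A and 1 of set B, and Hoxa-del the reverse. Within set A, Hoxa-del 2 minus the mean of Hoxa-flox 1 and 2 had a median of 0.19 (-0.46 to 0.92) and was positive for 36 genes. Within set B, the mean of Hoxa-del 1 and 3 minus Hoxa-flox 3 had a median of -0.20 (-0.52 to 0.39) and was negative for 32. These within-set values rest on 3 libraries each and have no test. Only *Rfc2* had all Hoxa-del above all Hoxa-flox libraries, where 2.25% of all symbols did, and the nearest libraries were Hoxa-del 1 (57.9 FPKM) and Hoxa-flox 3 (57.4). Rescaled to equal upper quartiles of all rows, an alternative chosen after seeing the data, these overlapped (58.1 and 58.7); rescaled to those of the tested symbols they did not (62.7 and 56.4). Its change was 0.21 (SE 0.12, adjusted p = 0.729, limma). With array weights, which down-weight libraries far from their group, limma called 37 genes higher, beside 15.9% of all symbols higher and 23.4% lower. The lowest weights fell on Hoxa-flox 3 (0.0967) and Hoxa-del 2 (0.0881), so that fit set mostly Hoxa-flox of set A against Hoxa-del of set B. The median change was 0.72 without Hoxa-flox 3, 0.61 without Hoxa-del 2, and 0.14, 0.16 and 0.17 without Hoxa-flox 1, Hoxa-flox 2 and Hoxa-del 3, with 0 genes called each time.

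The Cre virus alone was tested in cells with a wild type Hoxa cluster, as WT-Cre against WT-GFP. None of the 43 genes passed (adjusted p = 1 for all, limma), beside 0.0152% of all symbols, and 0 had an unadjusted p under 0.05. Values were lower after Cre in 38 genes and higher in 5, with a median of -0.19 (-0.36 to 0.20) against -0.03 over all symbols. In 22 genes every WT-Cre library lay below every WT-GFP library, where 16.3% of all symbols did. These included all 7 licensing genes, *Pcna*, *Rpa1*, *Rpa2*, *Rfc1*, *Rfc2*, *Rrm1*, *Rrm2*, *Tk1*, *Dut*, *Fen1*, *Lig1*, *Cdc45*, *Chaf1a*, *Uhrf1* and *Tipin*. *Pcna* averaged 42.4 ± 1.71 FPKM in WT-GFP and 33.8 ± 1.12 in WT-Cre, and *Rrm2* 30.6 ± 0.653 and 24.8 ± 0.118 (SD, n = 3). The fit pools its spread over all 4 groups, and with WT-Cre and WT-GFP alone in the fit 0 of the 43 genes and 0.038% of all symbols passed (limma). The median SD of the 43 genes was 0.0950 and 0.112 on the log2 scale in the wild type groups, and 0.731 and 0.490 in Hoxa-flox and Hoxa-del. With upper-quartile rescaling over the tested symbols, chosen after seeing the data, 18 genes had separate groups in this direction, beside 12.2% of all symbols.

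The difference between the Cre changes asks whether the signed change after Cre differed between floxed and wild type cells. It is positive where that change was higher in floxed cells, whichever change was larger in size. None of the 43 genes passed (adjusted p = 0.9997 for all, limma), beside 0.00759% of all symbols. All 43 differences were positive, from 0.00 to 0.95 with a median of 0.58 against -0.02 over all symbols. Unadjusted p-values under 0.05 were found for *Rfc2* (0.40, SE 0.16), *Pold1* (0.61, SE 0.26) and *Tk1* (0.72, SE 0.31), beside 324 of 13169 symbols. The difference draws on both Cre changes, so these values are not independent of them. It also holds the unequal mix of library sets in Hoxa-flox and Hoxa-del. The median was 1.02 without Hoxa-flox 3, 0.33 without Hoxa-flox 1 and 0.34 without Hoxa-flox 2 or Hoxa-del 3, with 0 genes called each time.

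**Figure D5:**
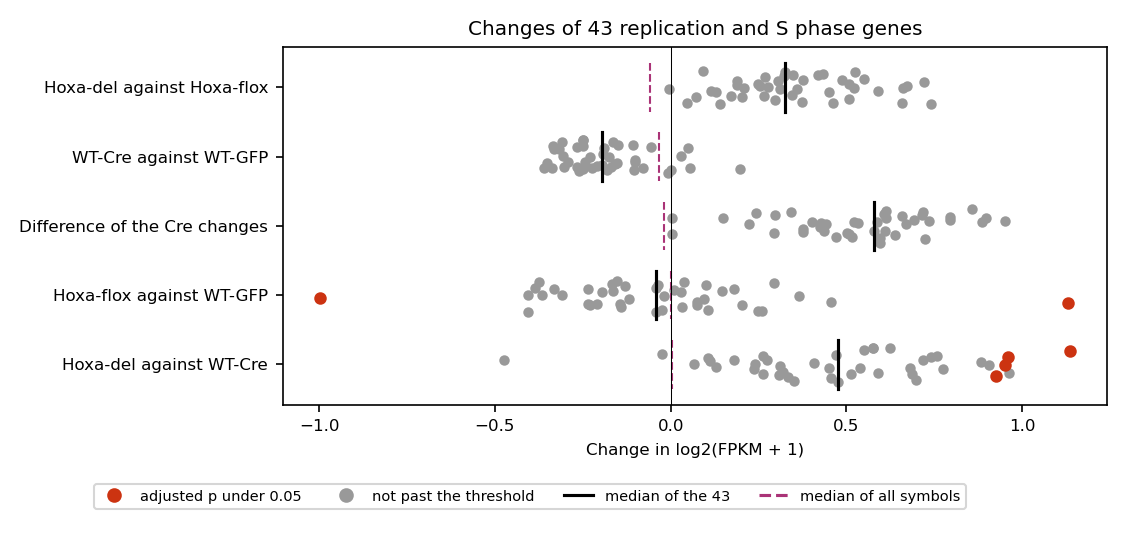
Change in log2(FPKM + 1) of each of the 43 genes (points) in 5 comparisons; red points have an adjusted p under 0.05 in limma, black lines are medians of the 43 genes and dashed lines medians of all symbols. Pole (1.13 in both) and Cdc45 (-0.997) stand apart in the comparisons between genotypes.

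Floxed and wild type cells under the control virus differed in 2 of the 43 genes. *Pole* (chromosome 5, 110286306 to 110337474, plus strand, GENCODE M21 on GRCm38) rose in Hoxa-flox, at 18.8 ± 0.620 FPKM against 8.06 ± 0.815 in WT-GFP (SD, n = 3), a change of 1.13 (SE 0.15, adjusted p = 0.000251, limma). *Cdc45* (chromosome 16, 18780447 to 18811987, minus strand) fell, at 12.6 ± 6.91 against 24.2 ± 0.624 FPKM, a change of -0.997 (SE 0.30, adjusted p = 0.0310). Over all symbols 13.3% were called higher and 13.5% lower, so 1 of 43 in each direction is below that background. The median SE of the change was 0.329 for the 43 genes and 0.224 over all symbols, so the 43 were also harder to call. The changes of the 43 genes split into 18 positive and 25 negative with a median of -0.04. In single libraries the group split: Hoxa-flox 1 and 2 lay below all WT-GFP libraries in 37 genes (36.7% of all symbols), and Hoxa-flox 3 above all of them in 39 (43.2%). *E2f1* (-0.37, adjusted p = 0.0773) and *Pold1* (-0.37, adjusted p = 0.164) came next. Without Hoxa-flox 3, 7 genes were called: *Pole* higher, and *Ccne1*, *Ccne2*, *Cdc45*, *E2f1*, *Fen1* and *Tk1* lower, beside 16.0% of all symbols higher and 15.9% lower. Without any 1 of the 5 other libraries only *Pole* was called, beside 8.9% to 10.0% of all symbols higher and 9.36% to 10.9% lower. In these fits *Cdc45* had an adjusted p of 0.0776 to 0.115 in limma. The median change was -0.44 without Hoxa-flox 3, and 0.17 without Hoxa-flox 1 or 2.

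Between the Cre-treated groups, 4 genes were higher in Hoxa-del than in WT-Cre and 0 were lower. *Pole* again changed by 1.13 (SE 0.15, adjusted p = 0.000249, limma), from 8.05 ± 1.29 to 18.9 ± 3.02 FPKM (SD, n = 3). *Rpa2* (chromosome 4, 132768332 to 132778752, plus strand) rose by 0.96 (SE 0.24, adjusted p = 0.0125), from 9.98 ± 0.930 to 20.6 ± 4.24 FPKM. The licensing genes *Cdc6* (0.95, SE 0.29, adjusted p = 0.0335) and *Mcm2* (0.93, SE 0.31, adjusted p = 0.0440) also passed. *Cdc6* went from 4.93 ± 0.618 to 10.6 ± 2.46 FPKM and *Mcm2* from 22.1 ± 0.692 to 44.1 ± 12.5 (SD, n = 3). Over all symbols 13.0% were called higher and 14.2% lower, so 4 and 0 of 43 are below that background. Here too the median SE was larger for the 43 genes (0.329) than over all symbols (0.224). *Mcm7* (0.96, adjusted p = 0.0641) and *Dut* (0.88, adjusted p = 0.0699) missed the threshold. Changes were positive in 41 genes, with a median of 0.48. In 13 genes all Hoxa-del libraries lay above all WT-Cre libraries (20.7% of all symbols), and in *Cdc45* all lay below (2725 of 13169 symbols). By library, Hoxa-del 1 and 3 lay above all WT-Cre libraries in 37 genes (30.8% of all symbols), and Hoxa-del 2 lay below all of them in 17 (40.4%). Without Hoxa-del 2, 12 genes were called higher: *Cdc6*, *Chaf1a*, *Dut*, *Mcm2*, *Mcm6*, *Mcm7*, *Pcna*, *Pold1*, *Pole*, *Rfc3*, *Rpa2* and *Slbp*, beside 13.2% of all symbols higher and 17.1% lower. Without any 1 of the 5 other libraries only *Pole* and *Rpa2* were called, beside 8.85% to 14.1% of all symbols higher and 10.5% to 14.4% lower. In these fits *Cdc6* and *Mcm2* had adjusted p-values of 0.0624 to 0.145 in limma. The median change was 0.83 without Hoxa-del 2 and 0.29 without Hoxa-del 3. The comparisons between genotypes share no libraries with each other, but each shares a group with the comparison of Hoxa-del and Hoxa-flox.

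Other genes of the replication pathway, 78 analysed of 81 listed, gave a more mixed picture. For Cre in floxed cells, Cre in wild type cells and the difference between these, 0 of the 78 passed in limma. An unadjusted p under 0.05 was found for 1, 2 and 0 of them, beside 826, 312 and 324 of 13169 symbols. Hoxa-flox against WT-GFP called 5 higher and 3 lower, and Hoxa-del against WT-Cre called 14 higher and 3 lower (limma). Over all symbols 13.3% were higher and 13.5% lower in the first of these, and 13.0% and 14.2% in the second. *Orc5*, of the origin recognition complex, rose by 1.32 (adjusted p = 0.000806) and 1.44 (adjusted p = 0.000468) in these comparisons, and the E2F family member *E2f2* by 1.23 (adjusted p = 0.000643) and 1.25 (adjusted p = 0.000623). The D-type cyclin genes *Ccnd1* (-2.64 and -2.97, adjusted p = 4.8e-06 and 1.9e-06) and *Ccnd2* (-2.58 and -2.71, adjusted p = 0.00561 and 0.00441) fell in both. Cyclin D acts upstream of E2F in G1. Across the library sets, 52 of the 78 had set B above set A and 7 had it below, beside 23.1% and 31.7% of all symbols, with a median ratio of 1.64. The chromatin remodeler *Hells* (6.01), the PCNA unloader *Atad5* (5.34), the histone chaperone *Nasp* (4.28) and the S phase cyclin gene *Ccna2* (3.81) were among the genes with the largest ratios. The 7 with set B below set A were *Ccnd2* (0.28), *Pold4* (0.31), *Samhd1* (0.46), *Cdkn1b* (0.48), *Ccnd3* (0.59), *Rnaseh2a* (0.63) and *Chtf8* (0.76). Among these, *Cdkn1b* encodes the cell cycle inhibitor p27 and *Samhd1* an enzyme that breaks down deoxynucleotides. *Cdkn1b* averaged 42.4 FPKM in set A, 20.3 in set B and 29.1 in the wild type, the opposite order to that of most replication genes.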

How the data were processed

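RNA-seq values for 12 libraries were read from 1 table of 28042 rows with gene symbols; 0 columns had no sample. The deposited values were taken as FPKM, although the header states no unit. The submitters' processing notes name STAR, Cufflinks, Cuffdiff 2.2.2.20150701, GRCm38 and mm10 without saying how each was used. How libraries were scaled, with which annotation and whether strand was used in counting is not given in the sources used here. Of several rows per symbol (1855 symbols; *Mcm2* 2, *Tk1* 3, *Dut* 2), that with the highest mean was kept.

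The 13169 symbols averaging at least 1 FPKM entered 1 fit of 4 groups with limma (version 3.58.1, trend option, under R 4.3.3). It used log2(FPKM + 1), a scale that understates changes of low genes, and the Benjamini-Hochberg threshold was 0.05. The method was tested on simulated data with independent noise and, for each gene, the same SD in every library. The wider spread of the floxed libraries, shared by many genes, was not simulated, so that test does not cover it. The 43 genes, the other lists and the sets were chosen with earlier results of these data known. Values in every library are given for the gene of each role with the highest mean, that with the smallest adjusted p in Hoxa-flox against WT-GFP, and called genes. Depth relative to WT-GFP 1 was estimated from low values (under 0.3 FPKM). Of these 45.3% to 53.2% lay on whole-number steps within 0.02 on the log2 scale, too few to recover reads. Alternatives were a pseudocount of 0.1, no filter, summed rows, upper-quartile rescaling (over the tested symbols or all rows), array weights, 2 groups in the fit, a replicate block and leaving out each library. Python 3.11.15, pandas 2.3.3 and scipy 1.17.1 were used.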

Additional observations from a re-analysis of the deposited data

Results flagged for a closer look

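*Rfc2*, which encodes a small subunit of the clamp loader, had separate groups in opposite directions after Cre in the 2 genotypes, although neither change passed (limma). Every Hoxa-del library lay above every Hoxa-flox library (change 0.21, adjusted p = 0.729), and every WT-Cre library lay below every WT-GFP library (-0.19, adjusted p = 1). The floxed groups overlapped after rescaling to equal upper quartiles of all rows, an alternative chosen after seeing the data. The difference between the Cre changes was 0.40 on the log2 scale (SE 0.16), with an unadjusted p of 0.0315 and an adjusted p of 0.9997 over all symbols in limma, so it did not pass. *Rfc2* was the 1 gene of 43 with this pattern, and the share of all symbols with it was not counted. Taken singly, 2.25% of all symbols had all Hoxa-del above all Hoxa-flox libraries. For WT-Cre below WT-GFP the share was 16.3%. In the floxed cells, 1 of 43 (2.33%) was near the share of all symbols.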

How the results depend on the processing

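No called gene changed sign under any alternative run. The median change of the 43 genes for Hoxa-flox against WT-GFP did, from -0.04 to 0.17 without Hoxa-flox 1 or 2. Array weights moved the counts of called genes most. Hoxa-del against Hoxa-flox called 37, all higher, beside 15.9% of all symbols higher and 23.4% lower. The difference of the Cre changes called 38, all higher, beside 11.5% and 14.7%. Hoxa-flox against WT-GFP called 30, which was 69.8% of the 43 and of all symbols. By direction 1 was higher (2.33%) and 29 lower (67.4%), beside 35.1% and 34.6% of all symbols. Hoxa-del against WT-Cre called 28, all higher, beside 17.0% of all symbols higher and 19.5% lower. WT-Cre against WT-GFP called 0, beside 0.137% of all symbols. The weights of Hoxa-flox 3 and Hoxa-del 2 were the lowest. With no filter, more genes were tested and Hoxa-flox against WT-GFP called 1 gene higher, beside 7.63% of all symbols higher and 7.9% lower. Hoxa-del against WT-Cre called 2 higher, beside 7.59% and 9.08%. With only the compared groups in the fit, Hoxa-flox against WT-GFP called 1 higher, beside 14.1% and 13.8%. Hoxa-del against WT-Cre called 5 higher in that setting, beside 8.22% and 9.99%. Summing the rows of a symbol gave 3 higher for Hoxa-del against WT-Cre, beside 13.0% and 14.5%. After rescaling to equal upper quartiles of all rows, 0 genes in place of 1 had all Hoxa-del libraries above all Hoxa-flox libraries, and the counts of 40 and 22 genes with separate library sets and separate wild type groups were as before. Leaving out each library gave 1 to 7 called genes for Hoxa-flox against WT-GFP, beside 18.3% to 31.9% of all symbols. Hoxa-del against WT-Cre called 2 to 12, all higher, beside 8.85% to 14.1% of all symbols higher and 10.5% to 17.1% lower. The other comparisons called 0, beside at most 5.98% of all symbols. A group left with 2 libraries used the spread pooled over all groups. *Pole* was called in all 13 alternatives of both genotype comparisons (highest adjusted p 0.00218 and 0.00780) and *Rpa2* in all 13 of its own (up to 0.0497), while *Cdc45*, *Cdc6* and *Mcm2* were lost in 7, 6 and 7 of 13 (adjusted p up to 0.115, 0.112 and 0.145).

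Same-numbered Hoxa-flox and Hoxa-del libraries had correlations of their deviations from the group means of -0.30, 0.60 and 0.72, and WT-GFP and WT-Cre libraries of 0.01, -0.01 and 0.09, so the numbers were not shown to pair the libraries. With the replicate block, Hoxa-del against WT-Cre called 7 genes higher (*Cdc6*, *Clspn*, *Mcm2*, *Mcm7*, *Pole*, *Rfc3* and *Rpa2*) in place of 4. These were 16.3% of the 43, near the 13.4% of all symbols called higher, while 14.2% of all symbols were called lower. The counts of the other comparisons stayed at 0, 0, 0 and 2. The 2 were called in Hoxa-flox against WT-GFP, beside 27.3% of all symbols.

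Precision is limited by 3 libraries a group and, in the floxed groups, by their wider spread. Read counts were not recovered, so what depth limits is unknown.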
